A study of Mus musculus with 24 samples.

Results

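The m6A readers examined here are 8 proteins that bind N6-methyladenosine in RNA: the YTH domain proteins Ythdc1, Ythdc2, Ythdf1, Ythdf2 and Ythdf3, and the IGF2 mRNA-binding proteins Igf2bp1, Igf2bp2 and Igf2bp3. The 8 genes were taken by name as members of these families, with earlier results of these data known, and all 8 were found among the 55471 annotated genes of the counts. Their mRNAs were followed in SLIM-seq, an m6A immunoprecipitation for small samples, with 3 IP and 3 input libraries each from MII oocytes, late 1-cell (L1C) embryos and late 2-cell (L2C) embryos. They were also followed in L2C embryos that had been injected as zygotes with crRNAs that target *Ythdc1* together with Cas13d mRNA (KD, 3 libraries) or with Cas13d mRNA alone (Ctrl, 3 libraries), so that Cas13d is shared by both groups and Ctrl embryos received no crRNA. All oocytes and embryos were wild type and came from superovulated B6D2F1 females 8 weeks of age, which for the embryos had been mated with B6D2F1 males. Collection for SLIM-seq was 14 to 16 h after hCG for MII, 27 to 29 h for L1C and 48 to 50 h for L2C. For the injected KD and Ctrl embryos no hours are stated separately. Each library holds RNA of pooled oocytes or embryos, and nothing in the labels says how the 3 libraries of a group were separated, so the p values measure the spread between these libraries, which may be technical. The inputs are at the same time the reference of the IP and the RNA-seq of their stage.

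The YTH domain binds m6A directly in a pocket of aromatic residues. Ythdc1 is the nuclear member and acts in splicing, export and chromatin-bound RNA, Ythdc2 is an RNA helicase needed for meiosis of germ cells, and the 3 Ythdf paralogs are cytoplasmic and are known for bringing bound mRNAs to deadenylation and decay, for which Ythdf2 is the best known; Ythdf1 has also been tied to translation. Igf2bp proteins bind through KH domains and are known for keeping target mRNAs stable and translatable. In mouse oocytes, Ythdf2 and Ythdc1 are both required for competence, and the passage from MII to the 2-cell embryo is the time at which maternal mRNA is removed and the embryonic genome becomes active.

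Ythdc1 was the knocked-down gene, and the designed sequences that hit it are shown here since the KD comparison rests on them. Each crRNA spacer is given 5′ to 3′ in lower case, and its reverse complement was found in the *Ythdc1* mRNA.
crRNA 1: cctcattctcagtgttgttgccc
crRNA 2: aattcatcatcctgttctggtac
crRNA 3: ctctcagaaccatctggtgtagg
The spacers are 23 bases long and none occurred in the sense direction. In the longest protein-coding *Ythdc1* transcript (3269 bases, 17 exons, plus strand, GRCm38 with GENCODE M21), crRNA 2 pairs with exon 2 at chr5:86815667-86815689 and crRNA 1 with exon 4 at chr5:86817026-86817048. crRNA 3 pairs across a splice junction, with the end of exon 3 (chr5:86816772-86816792) and the first bases of exon 4 (chr5:86816907-86816908). All target bases are coding, and each target is present in 5 of the 9 annotated *Ythdc1* transcripts, 3 of them protein coding. Over the transcripts of the other 7 readers the best alignment of any spacer, without gaps, had 7 to 9 mismatches. Among 21900 other protein-coding genes the fewest mismatches were 4 for crRNA 1, 3 for crRNA 2, at a single gene, and 5 for crRNA 3.

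The SLIM-seq counts need care for these genes, because the kallisto targets were whole gene spans, introns included: each of the 55471 targets was as long as its gene from start to end. *Ythdc1* (ENSMUSG00000035851) spans 32439 bases at chr5:86804221-86836659, of which 13651 are exonic. *Ythdf1* (ENSMUSG00000038848, chr2:180904377-180920949, minus strand), *Ythdf2* (ENSMUSG00000040025, chr4:132184912-132212303, minus) and *Ythdf3* (ENSMUSG00000047213, chr3:16183212-16217037, plus) are compact, with spans of 16573, 27392 and 33826 bases. *Igf2bp1* (ENSMUSG00000013415, chr11:95957163-96005940), *Igf2bp2* (ENSMUSG00000033581, chr16:22059009-22163299) and *Igf2bp3* (ENSMUSG00000029814, chr6:49085223-49214957) lie on minus strands and span 48778, 104291 and 129735 bases for 9682, 7402 and 8159 bases of exon. *Ythdc2* (ENSMUSG00000034653) is on chromosome 18 and spans 61979 bases with 8878 of exon. Genes inside these spans can share reads with a reader: *Gm43055* in *Ythdc1* reached at most 7.60 CPM, counts scaled to the library total, in any SLIM-seq library, and *Malsu1* in *Igf2bp3* reached 38.7. The other overlapping genes were *Mir3063* and *Gm29202* in *Igf2bp1* and *Gm18010* in *Igf2bp3*.

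SLIM-seq libraries held 11107421 to 39739950 estimated counts. The fewest counts of a reader in any library were 14, for *Igf2bp1* in an MII IP. The merged KD table held 3276715 to 5463868 counts per library on the 25739 genes up to a point on chromosome 7, at which the counts of KD replicate 3 end. It holds *Ythdc1*, *Ythdf1*, *Ythdf2*, *Ythdf3* and *Igf2bp3*. The other 3 readers could be compared only over the 5 libraries with the whole annotation, which held 8696476 to 14500548 counts. Between replicates the chi-square of counts was at least 2.77 times its degrees of freedom, so no library was a copy of another. As labelled, 12 of 12 oocyte markers were above 1 CPM in all groups, and 10 2-cell markers summed in the inputs to 48.9 to 57.9 CPM at MII, to 317 to 397 CPM at L1C, and at L2C to 689 to 905 CPM. Of 13 cumulus cell markers, the inputs of MII, L1C and L2C had 7, 8 and 3 above 1 CPM, and their sums were 59.0 to 67.3, 38.9 to 39.9 and 8.22 to 9.16 CPM. *Ptx3* was at 0 in all inputs and *Foxl2* in L2C inputs. These sums fell at each step, as did *Igf2bp2*. *Igf2bp3* and *Ythdf2* fell between MII and L1C and *Ythdf3* and *Ythdc2* between L1C and L2C, and the part of the cumulus markers in these results was not tested.

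The first comparison asked how the mRNA of each reader moved from the oocyte to the 2-cell embryo. From MII to L2C, *Igf2bp1*, *Ythdc2*, *Ythdf1*, *Ythdf2* and, in CPM but not in the deposited TPM, *Ythdc1* rose, and *Igf2bp2*, *Ythdf3* and *Igf2bp3* fell. In both families with 3 paralogs the members went opposite ways: *Ythdf2* and *Ythdf1* rose while *Ythdf3* fell, and *Igf2bp1* rose 18.2-fold while *Igf2bp2* fell 6.83-fold. The fit of 9 inputs (edgeR's quasi-likelihood test, Benjamini-Hochberg adjustment over 19903 genes, called at an adjusted p under 0.05) called 5 of the 8 readers higher, where the background was 47.5% of all genes, and 3 lower, where it was 37.1%. Either way 84.6% of all genes were called, so a call is no mark of the readers, and their sizes and directions are given instead. CPM below are scaled by the trimmed mean of M values over the 9 inputs. A CPM is a share of the RNA in a library, and in pooled samples less RNA per embryo and fewer embryos that hold it cannot be told apart.

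*Igf2bp2* had 426, 419 and 452 CPM in the MII inputs, 128, 120 and 152 in the L1C inputs and 62.1, 64.2 and 63.5 in the L2C inputs. Every library of a later stage was below every library of an earlier one. The fall was -1.70 ± 0.12 on the log2 scale (SE) from MII to L1C (adjusted p = 5e-08) and -1.08 ± 0.12 from L1C to L2C (adjusted p = 8.8e-07), so that most of it came before the 2-cell stage.

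*Ythdf3* had 402, 489 and 494 CPM at MII, 476, 456 and 387 in L1C embryos and 136, 105 and 117 in L2C embryos. MII and L1C overlapped, with a log2 difference of -0.07 ± 0.14 (adjusted p = 0.68), and L2C lay below both. In the deposited TPM, 96.5 to 114 at MII and 74.7 to 91.2 at L1C did not overlap, and the difference was -0.35 on the log2 scale with 1 TPM added. The step from L1C to L2C in CPM was -1.88 ± 0.14 (adjusted p = 1.2e-08), a 3.69-fold fall.

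*Igf2bp3* had 298, 357 and 408 CPM at MII, 143, 155 and 160 in L1C embryos and 272, 286 and 288 in L2C embryos, which is a dip at L1C in CPM. It fell by 1.21 ± 0.13 on the log2 scale to L1C (adjusted p = 2.7e-06) and rose by 0.88 ± 0.13 to L2C (adjusted p = 1.5e-05). The net change from MII to L2C was -0.33 ± 0.13 (adjusted p = 0.025) and did not pass the test with DESeq2 (-0.25), with scaling to library size (-0.18), or without MII input 2 (-0.34), MII input 3 (-0.24) or L2C input 1 (-0.31). In the deposited TPM most of the fall was kept: MII (18.5 to 24.4) and L2C (10.2 to 10.4) did not overlap, the net change was -0.99 on the log2 scale with 1 TPM added and -1.05 with 0.1 added, and the rise from L1C to L2C was 0.40 and 0.44.

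*Ythdf2*, the paralog best known for clearing maternal mRNA, also dipped, and then overshot. Its values were 97.4, 90.8 and 89.2 CPM at MII, 51.6, 55.1 and 52.5 in L1C embryos and 344, 295 and 378 in L2C embryos. The 3 stages did not overlap. The dip was -0.80 ± 0.12 on the log2 scale (adjusted p = 7e-05) and the rise from L1C to L2C 2.68 ± 0.13 (adjusted p = 1e-10), or 6.39-fold.

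*Igf2bp1* was low in the oocyte and made, in CPM, the largest step of any reader between neighbouring stages. In TPM with 1 added, the rise of *Ythdc2* from MII to L1C (2.66 on the log2 scale) was larger than that of *Igf2bp1* from L1C to L2C (2.49), and with 0.1 added it was smaller (2.75 against 3.71). It had 4.61, 3.45 and 4.06 CPM at MII, 3.60, 3.76 and 3.02 in L1C embryos and 69.4, 77.8 and 74.3 in L2C embryos. MII and L1C overlapped (-0.22 ± 0.17 on the log2 scale, adjusted p = 0.29), and the rise from L1C to L2C was 4.41 ± 0.17 (adjusted p = 1.6e-11), 21.3-fold.

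*Ythdf1* had the lowest TPM of the 3 Ythdf paralogs at every stage. Its inputs held 1.68, 2.00 and 1.75 CPM at MII, 2.83, 2.79 and 2.59 in L1C embryos and 8.78, 8.42 and 7.82 in L2C embryos. All 3 stages were apart, and the rise from L1C to L2C was 1.60 ± 0.20 on the log2 scale (adjusted p = 2.8e-06). The earlier step, 0.60 ± 0.21 (adjusted p = 0.028), was no longer called with DESeq2 (0.56), without the filter on low counts (0.55), with only these stages fitted (0.61), or without MII input 1 (0.54), MII input 3 (0.57), L1C input 1 (0.58) or L1C input 2 (0.58). In the deposited TPM the earlier step was 0.15 with 1 TPM added and 0.28 with 0.1 added, and the rise from L1C to L2C was 0.72 and 1.10.

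The stage changes of *Ythdc1* depend on the scale. It held 10.4, 12.3 and 12.6 CPM at MII, 12.5, 10.6 and 9.65 in L1C embryos and 21.01, 15.6 and 19.6 in L2C embryos. In CPM the first 2 stages overlapped (-0.10 ± 0.18 on the log2 scale, adjusted p = 0.64) and L2C was above both, with a rise from L1C of 0.78 ± 0.17 (adjusted p = 0.00084), or 1.71-fold. Its net change from MII was 0.67 ± 0.17 (adjusted p = 0.0024). In the deposited TPM, MII (2.61 to 3.04) lay above L1C (1.94 to 2.501) and L2C (2.24 to 3.22) overlapped both. There the rise from L1C to L2C was 0.24 with 1 TPM added and 0.33 with 0.1 added, and the net change from MII was -0.04 and -0.05.

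In counts on its whole span, *Ythdc2* stepped up already at L1C. It had 83.4, 87.3 and 90.7 CPM at MII, 719, 762 and 686 in L1C embryos and 535, 511 and 557 in L2C embryos, with no overlap between stages. The rise from MII to L1C was 3.05 ± 0.11 on the log2 scale (adjusted p = 8.8e-11), 8.29-fold, and a smaller fall followed (-0.43 ± 0.11, adjusted p = 0.0016), which in the deposited TPM was -0.86 with 1 TPM added and -0.87 with 0.1 added. Without scaling between the experiments, *Ythdc2* had 564 CPM on its span in L2C inputs and 10.5 CPM on its exons in Ctrl embryos. Its rise was not checked on exons alone. Of the 8 readers, 5 were called between MII and L1C (background 56.2%), of which 2 were higher (background 31.9%) and 3 lower (24.3%). All 8 were called between L1C and L2C (82.9%), of which 5 were higher (44.1%) and 3 lower (38.8%).

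**Figure D1:**
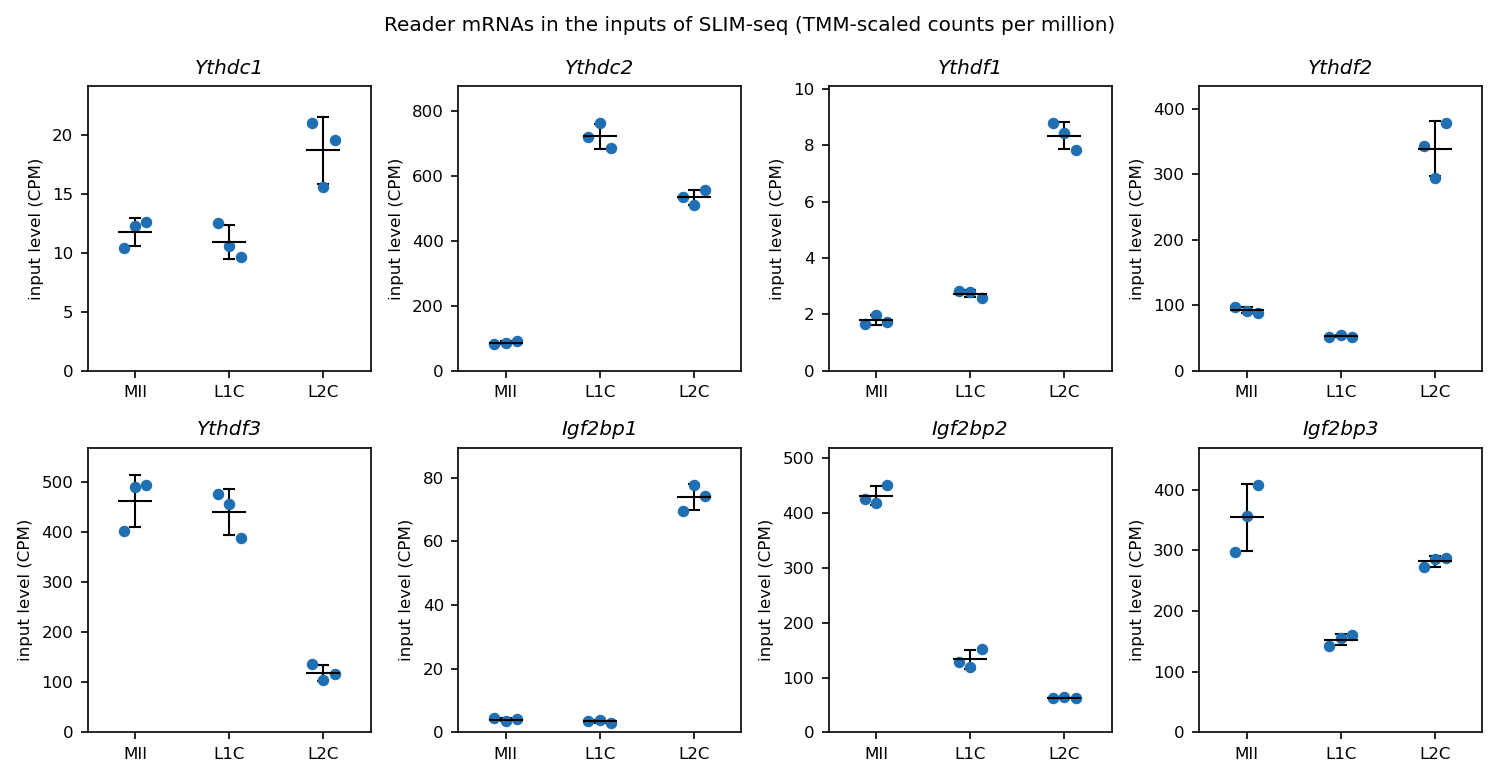
Level of each reader mRNA (CPM scaled over the 9 inputs, y axis from 0) in the inputs at MII, L1C and L2C; points are libraries, lines the mean and bars the SD (n = 3). *Igf2bp2* and *Ythdf3* sit lowest at L2C, *Igf2bp1*, *Ythdf1*, *Ythdf2* and *Ythdc1* sit highest there in CPM, and *Ythdc2* is highest at L1C.

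The sizes depend on the scale. From MII to L2C the median log2 change of the 19903 genes was 0.40 on the scale used here, 0.54 with scaling to library size and -0.07 in the deposited TPM with 1 TPM added. On that last scale the readers changed by 2.31 (*Igf2bp1*), 1.80 (*Ythdc2*), 1.12 (*Ythdf2*), 0.87 (*Ythdf1*), -0.99 (*Igf2bp3*), -2.61 (*Ythdf3*) and -3.12 (*Igf2bp2*), in the same direction as in CPM. For *Igf2bp1* and *Ythdf1*, whose TPM are low, the added 1 also shrinks the value, and with 0.1 added they were 3.27 and 1.38. The single steps on that scale, with 1 TPM added, were -1.03 and 2.15 for *Ythdf2*, -0.35 and -2.25 for *Ythdf3*, and -1.86 and -1.25 for *Igf2bp2*, from MII to L1C and from L1C to L2C.

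Levels of different genes were compared per length, in the TPM the authors deposited, which divide by the whole span. At MII *Ythdf3* had the highest TPM of the 8 readers (108 ± 10.1, SD, n = 3), followed by *Igf2bp2* (32.7 ± 1.06), *Ythdf2* (26.9 ± 1.86), *Igf2bp3* (21.5 ± 2.93), *Ythdc2* (11.1 ± 0.24), *Ythdc1* (2.88 ± 0.23), *Ythdf1* (0.87 ± 0.08) and *Igf2bp1* (0.66 ± 0.10). No pair of neighbours in this order overlapped. The order depends on the length used: per kb of exon at MII, *Igf2bp3* (34.8 to 47.8 CPM per kb) lay above *Ythdf2* (18.6 to 20.4). At L1C *Ythdf3* (84.5 ± 8.68 TPM) and *Ythdc2* (75.4 ± 3.80) overlapped at the top, and so did *Igf2bp2* (8.26 ± 1.07) and *Igf2bp3* (7.60 ± 0.48), with *Ythdf2* at 12.6 ± 0.41 between the pairs. Per kb of exon, *Ythdf2* at L1C (11.1 to 12.1 CPM per kb) lay below both *Igf2bp3* (17.2 to 19.2) and *Igf2bp2* (16.3 to 20.1). At L2C *Ythdf2* had become the highest (59.3 ± 7.98 TPM), above *Ythdc2* (41.1 ± 2.43), *Ythdf3* (16.9 ± 2.83), *Igf2bp3* (10.3 ± 0.10) and *Igf2bp1* (7.21 ± 0.18). *Igf2bp2* (2.88 ± 0.05 TPM), *Ythdc1* (2.77 ± 0.49) and *Ythdf1* (2.43 ± 0.21) closed the order and each overlapped with the next. Per kb of exon at L2C, *Igf2bp3* (36.0 to 36.9 CPM per kb) lay above *Ythdf3* (20.5 to 27.4). There *Igf2bp2* (8.87 to 9.13) lay above *Igf2bp1* (7.75 to 8.45), and *Ythdf1* (2.44 to 2.86) above *Ythdc1* (1.20 to 1.66).

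Within each family the leading paralog changed over the stages. Of the summed TPM of *Ythdf1*, *Ythdf2* and *Ythdf3*, *Ythdf3* made up 79.5% ± 2.67 (SD, n = 3) at MII and 86.0% ± 1.29 at L1C, and *Ythdf2* made up 75.4% ± 2.26 at L2C. *Ythdf1* stayed at 0.64% ± 0.05, 1.11% ± 0.05 and 3.12% ± 0.45. Dividing by exon length instead of span gave nearly the same shares for *Ythdf2*, 19.1%, 12.4% and 74.9% at MII, L1C and L2C against 19.9%, 12.9% and 75.4%. Of the summed TPM of the Igf2bp genes, *Igf2bp2* held 59.7% ± 3.02 at MII, then 50.5% ± 2.79 and 14.1% ± 0.29 at L1C and L2C, and *Igf2bp1* 1.20% ± 0.23, 2.85% ± 0.51 and 35.3% ± 0.78. *Igf2bp3* went from 39.1% ± 3.23 to 46.6% ± 2.38 and 50.5% ± 0.60. Here the length mattered: per kb of exon, *Igf2bp1* held 15.0% ± 0.44 at L2C and *Igf2bp3* 68.1% ± 0.38. At L1C, *Igf2bp3* held 50.6% ± 2.55 and *Igf2bp2* 48.5% ± 2.69 per kb of exon, and they overlapped. On exon counts per kb in the Ctrl L2C embryos of the KD experiment, *Igf2bp1* held 7.25% ± 0.67 (SD, n = 3), *Igf2bp2* 34.5% ± 0.19 and *Igf2bp3* 58.3% ± 0.66, and *Ythdf2* held 84.8% ± 0.50 and *Ythdf3* 10.5% ± 0.63 of the Ythdf sum.

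**Figure D2:**
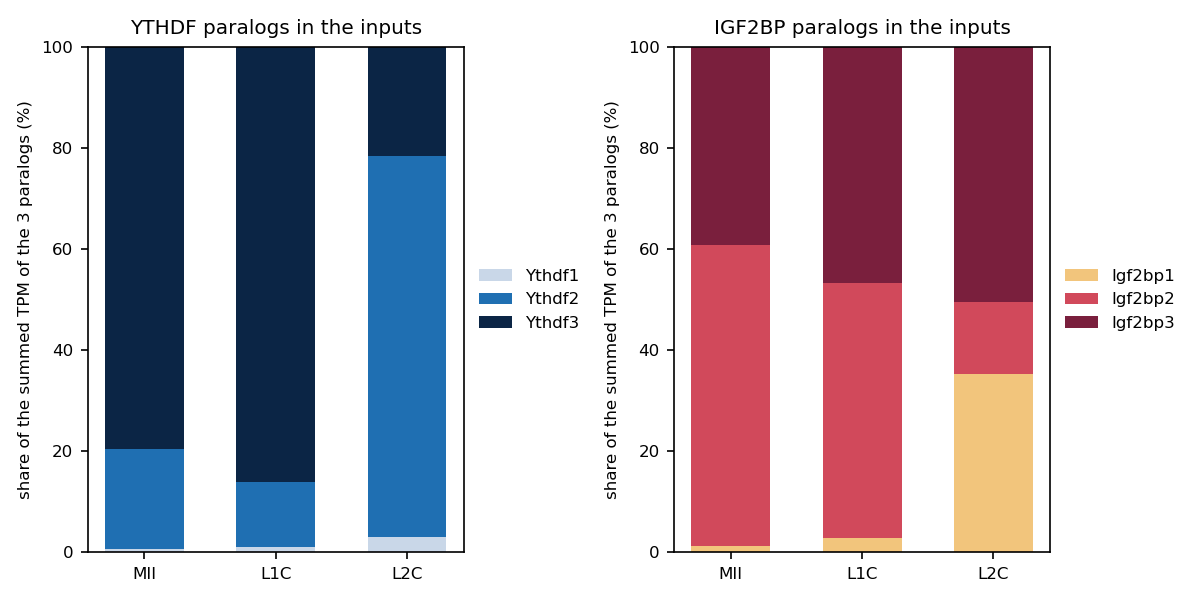
Share of each paralog (%, y axis) in the summed deposited TPM of its family, as the mean of 3 inputs at MII, L1C and L2C. *Ythdf3* makes up 79.5% of the Ythdf sum at MII and *Ythdf2* 75.4% at L2C, and *Igf2bp1* goes from 1.20% to 35.3% of the Igf2bp sum, where it held 15.0% per kb of exon.

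The genes whose profile over the 9 inputs was nearest to that of a reader were taken from 9925 other protein-coding genes with a mean of at least 5 CPM, by the Euclidean distance of centred log2 CPM. They were *Blcap* (distance 0.28) and *Prep* (0.32) for *Igf2bp2*, *Elp4* (0.26) and *Ptbp2* (0.27) for *Ythdf3*, and *Sephs2* (0.25) and *Slc7a6os* (0.28) for *Igf2bp3*. For the readers that rose they were *Sec24a* (0.28) and *C1qbp* (0.36) for *Ythdf2*, *Qsox2* (0.41) and *Nepro* (0.48) for *Igf2bp1*, *Pafah1b2* (0.35) and *Mtmr12* (0.38) for *Ythdf1*, and *Strap* (0.23) and *Diaph3* (0.24) for *Ythdc1*. Mean CPM at MII, L1C and L2C were 0.70, 0.57 and 13.9 for *Qsox2* and 4.0, 3.31 and 68.7 for *Nepro*. Both passed the mean of 5 CPM only through L2C. *Ythdc2* was nearest to *Alk* (0.18), a receptor tyrosine kinase gene with 11.6, 94.7 and 70.7 mean CPM at MII, L1C and L2C, and to *Nhsl2* (0.27), with 10.5, 87.5 and 61.9.

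The second comparison asked which reader mRNAs the m6A antibody pulled down. *Ythdc1* and *Ythdf1* were higher in IP than in input at all 3 stages, and *Ythdf2*, *Ythdf3*, *Igf2bp1*, *Igf2bp2* and *Igf2bp3* were lower in IP than in input at all 3. *Ythdc2* was lower at L1C and L2C only as far as the test goes, since its MII difference, 0.17 ± 0.12 on the log2 scale, was not called (adjusted p = 0.3). Thus 2 of 8 readers were called higher at MII, L1C and L2C, where 17.7%, 15.8% and 22.0% of 21950 genes were, and 5, 6 and 6 were called lower, where 21.0%, 18.2% and 22.0% were. With an unadjusted p under 0.05 and over 1 count in each input, 2 readers were higher at each stage, against 19.5%, 18.9% and 24.3% of genes. In either direction 7, 8 and 8 readers were called against 38.6%, 33.9% and 44.0% of genes. With scaling to library size alone the split of all genes moved to 26.2%, 29.03% and 33.3% higher and 16.2%, 11.9% and 16.0% lower, and the median log2 difference from 0.00, 0.07 and 0.09 to 0.20, 0.37 and 0.34, while the direction of every reader stayed as given here. The fit joined all 18 libraries, and CPM in this part are scaled over the 18. IP and input are each scaled to their own total, so a value below 0 is a share lower than that of the typical RNA and does not show that an mRNA carries no m6A.

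*Ythdc1* held 12.8, 14.7 and 15.0 CPM in the MII inputs against 25.9, 19.04 and 28.0 in the MII IPs. At L1C the inputs had 14.3, 12.1 and 10.8 and the IPs 21.7, 22.9 and 24.2, and at L2C the inputs had 20.3, 14.8 and 18.95 and the IPs 35.8, 47.6 and 44.5. No IP library was as low as an input of its stage. The log2 difference was 0.78 ± 0.17 at MII (adjusted p = 0.0011), 0.88 ± 0.17 at L1C (adjusted p = 0.00046) and 1.24 ± 0.17 at L2C (adjusted p = 8.6e-06), the last being 2.36-fold.

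*Ythdf1* held 2.06, 2.40 and 2.08 CPM in the MII inputs against 5.71, 7.11 and 5.48 in the IPs, and 8.50, 7.98 and 7.57 in the L2C inputs against 18.9, 18.3 and 21.4 in the IPs. At L1C the inputs, with 3.25, 3.17 and 2.91, and the IPs, with 5.51, 5.88 and 4.62, were apart as well. Its log2 difference was 1.49 ± 0.18 at MII (adjusted p = 1.4e-06), 0.78 ± 0.17 at L1C (adjusted p = 0.0012) and 1.29 ± 0.15 at L2C (adjusted p = 2.2e-06).

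*Ythdf3*, the leading paralog of the oocyte, held 492, 587 and 588 CPM in the MII inputs and 121, 102 and 138 in the MII IPs. At L2C the inputs had 132, 99.1 and 113 and the IPs 55.5, 53.4 and 57.7. IPs were below inputs at every stage, but the gap narrowed from -2.21 ± 0.14 on the log2 scale at MII (adjusted p = 6e-10) through -1.75 ± 0.14 at L1C (adjusted p = 2.1e-08) to -1.05 ± 0.14 at L2C (adjusted p = 7.3e-06). The change of the gap from MII to L2C, tested as an interaction, was 1.16 ± 0.19 (adjusted p = 0.00029).

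*Igf2bp1* was lowest in IP at MII, with 5.64, 4.13 and 4.83 CPM in the inputs and 0.91, 1.09 and 0.86 in the IPs, where it rested on few counts. Its log2 difference was -2.34 ± 0.19 at MII (adjusted p = 8.6e-09), -1.05 ± 0.16 at L1C (adjusted p = 4.7e-05) and -1.45 ± 0.13 at L2C (adjusted p = 1.2e-07), when the inputs had 67.2, 73.7 and 72.0 CPM against 27.8, 23.7 and 26.4 in the IPs. The interaction was 1.29 ± 0.25 from MII to L1C (adjusted p = 0.0026) and 0.89 ± 0.23 from MII to L2C (adjusted p = 0.0096), of which the latter was not called without the filter on low counts (0.85).

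*Ythdc2* went the other way. It held 102, 105 and 108 CPM in the MII inputs and 114, 114 and 126 in the IPs, then 823, 866 and 770 in the L1C inputs and 335, 472 and 473 in the IPs. Its log2 difference was -0.94 ± 0.12 at L1C (adjusted p = 5.3e-06) and -1.08 ± 0.12 at L2C (adjusted p = 9.9e-07), and the interaction was -1.11 ± 0.17 from MII to L1C (adjusted p = 0.0003) and -1.24 ± 0.17 from MII to L2C (adjusted p = 3.7e-05). With scaling to library size the MII difference was 0.40 and was called higher.

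The 3 remaining readers were lower in IP with smaller steps between stages. *Igf2bp3* was at -1.32 ± 0.12, -1.03 ± 0.12 and -1.56 ± 0.13 on the log2 scale at MII, L1C and L2C, *Ythdf2* at -0.97 ± 0.12, -0.69 ± 0.12 and -0.69 ± 0.12, and *Igf2bp2* at -0.81 ± 0.10, -0.73 ± 0.10 and -0.44 ± 0.10. None of their 9 changes between stages was called in the joint fit. The change of *Igf2bp3* from L1C to L2C, -0.53 (adjusted p = 0.06), was called lower with DESeq2 (-0.57), with only these stages fitted (-0.71) and without L2C IP 2 (-0.66). This test has limited power, so changes of a moderate size may have been missed. The highest adjusted p of the called IP differences was 0.0019, for *Igf2bp2* at L2C, which was not called with scaling to library size (-0.18). For *Ythdf2* the MII inputs had 119, 109 and 106 CPM against 52.4, 67.1 and 50.6 in the IPs, and the L2C inputs 333, 279 and 366 against 192, 224 and 193. Over all changes of IP enrichment, 2 of 8 readers were called between MII and L1C (background 7.33%), 1 of them higher (3.13%) and 1 lower (4.21%), or 4.41% and 3.86% of genes with scaling to library size. Between L1C and L2C 1 reader was called (9.47%), which was higher, and none was lower (backgrounds 5.0% and 4.47%). Between MII and L2C 3 were called (20.3%), 2 of them higher (11.1%) and 1 lower (9.21%). The call from L1C to L2C, *Ythdf3* with 0.71 ± 0.19 (adjusted p = 0.027), was lost with the replicate number as a block (0.71), with only these stages fitted (0.52), or without L1C input 1 (0.63), L1C input 2 (0.68), L2C input 2 (0.61), L2C input 3 (0.69), L1C IP 1 (0.64) or L2C IP 3 (0.68).

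**Figure D3:**
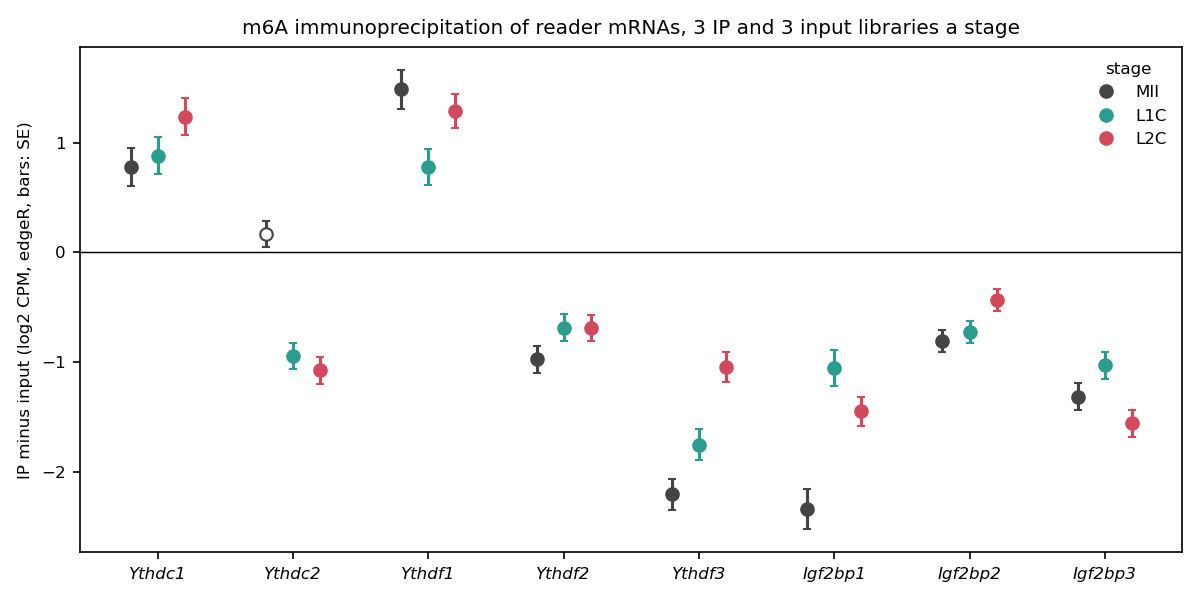
Difference between IP and input (log2 CPM, y axis, from the edgeR fit of 18 libraries, bars SE) for each reader at MII, L1C and L2C; filled points are called at an adjusted p under 0.05 and the open point is not. *Ythdc1* and *Ythdf1* lie above 0 at all stages, *Ythdf3* moves from -2.21 to -1.05, and *Ythdc2* moves from 0.17 to -1.08.

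The letters GGACT, the commonest form of the m6A consensus, were counted on the sense strand of the longest protein-coding transcript of each gene (GENCODE M21), with no other motif searched. *Ythdf1* and *Ythdc1*, the readers higher in IP, held 1 in 3184 bases and 2 in 3269 bases, or 0.31 and 0.61 per kb, and the median over 21901 genes was 1.01 per kb. *Igf2bp1* held 10 in 8378 bases (1.19 per kb), *Igf2bp2* 5 in 3899 (1.28 per kb) and *Ythdf2* 5 in 4129 (1.21 per kb), and all were lower in IP. *Ythdf3* held 1 in 5102 bases (0.20 per kb), *Igf2bp3* 2 in 4345 (0.46 per kb) and *Ythdc2* 3 in 7215 (0.42 per kb). Of all genes, 87.6% held the motif at least once, 85.1% had a density at or above that of *Ythdf1*, 72.4% at or above that of *Ythdc1* and 34.6% at or above that of *Igf2bp2*. The motif was counted on transcripts without introns and the IP differences on whole spans, so they cover different sequences. A link between motif density and IP was not tested.

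The third comparison asked what the knockdown of *Ythdc1* did to the readers in L2C embryos. *Ythdc1* itself was at 523, 541 and 519 CPM in the KD libraries and at 1080.0, 1098 and 994 in the Ctrl libraries, on the scale of the merged table, and the groups were far apart. Its log2 change was -1.004 ± 0.062 (adjusted p = 1.3e-10), a 2.01-fold fall, and the knocked-down gene follows the labels in all 6 libraries. In the table, 4 of 5 readers were called, *Ythdc1* included, but so were 70.9% of the 7433 genes tested, with 33.5% higher and 37.4% lower. With an unadjusted p under 0.05 and a log2 change over 1 in size, 1 reader, *Ythdc1*, and 37.2% of genes passed, and *Ythdc1* no longer did with DESeq2 (-0.99) or without KD 1 (-0.99), KD 3 (-0.99), Ctrl 1 (-0.98) or Ctrl 2 (-0.97).

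*Ythdf3* fell in KD, from 424, 409 and 357 CPM in Ctrl to 312, 308 and 274 in KD, a log2 change of -0.42 ± 0.08 (adjusted p = 0.00011). *Igf2bp3* also fell, from 266, 263 and 281 CPM to 187, 196 and 218 (-0.43 ± 0.08, adjusted p = 7.5e-05). *Ythdf2* rose from 2841, 2715 and 2666 CPM to 3389, 3146 and 3339, a log2 change of 0.26 ± 0.06 (adjusted p = 0.0003), or 1.20-fold, and with scaling to library size it was 0.14 and still called. None of these groups overlapped, and each change was smaller than that of *Ythdc1*. *Ythdf1* was at 102, 115 and 115 CPM in Ctrl and 111, 119 and 129 in KD, which overlapped (0.12 ± 0.09, adjusted p = 0.25, 95% interval from -0.06 to 0.31), and was 0.00 with scaling to library size.

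The readers beyond the table were compared over KD replicates 1 and 2 and the 3 Ctrl libraries, in which 66.8% of 17074 genes were called, 30.5% higher and 36.4% lower. *Ythdc2* was at 5.64 and 6.85 CPM in KD and at 10.2, 11.8 and 8.98 in Ctrl, with no overlap. Its log2 change was -0.74 ± 0.21 (adjusted p = 0.0051), and it was -0.59 and not called without KD replicate 1. *Igf2bp1* was at 13.4 and 13.7 CPM in KD and at 13.5, 16.5 and 16.0 in Ctrl, with a log2 difference of -0.17 ± 0.15 (adjusted p = 0.34, interval from -0.47 to 0.13). *Igf2bp2* was at 50.1 and 55.7 CPM in KD and at 54.1, 54.6 and 58.3 in Ctrl (-0.07 ± 0.10, adjusted p = 0.54, interval from -0.27 to 0.12). In the same libraries 10 2-cell markers summed to 430 to 476 CPM in KD and 1471 to 1546 in Ctrl, and 12 oocyte markers to 15620 to 16020 and 15670 to 17360. Most of the oocyte sums was *Dppa3*, with a mean of 14580 CPM in KD and 13660 in Ctrl. The sums therefore do not show how the other oocyte markers differed. The part of these differences between embryos in the reader changes was not tested.

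**Figure D4:**
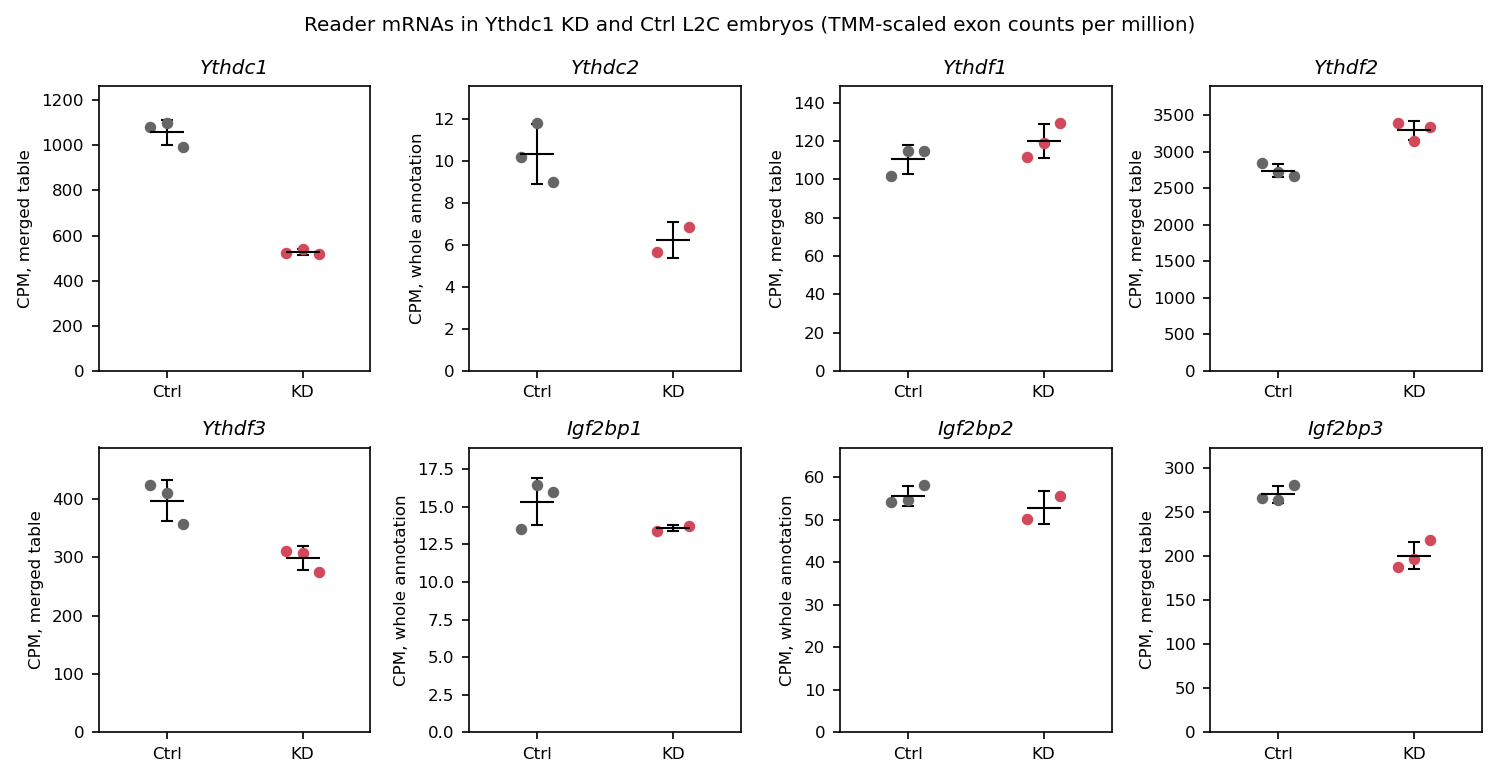
Reader mRNAs in Ctrl and KD L2C embryos (CPM scaled within the merged table, or within the whole annotation for *Ythdc2*, *Igf2bp1* and *Igf2bp2*, y axis from 0); points are libraries, lines the mean and bars the SD (n = 3, or 2 KD libraries for the whole annotation). *Ythdc1*, *Ythdc2*, *Ythdf3* and *Igf2bp3* are lower in KD with no overlap, and *Ythdf2* is higher.

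Counts on exons in Ctrl embryos and counts on spans in L2C inputs gave different orders of the readers at nominally the same stage. Per kb of exon, Ctrl embryos had *Ythdf2* first (235 ± 6.02 CPM per kb, SD, n = 3), then *Ythdc1* (30.3 ± 1.23) and *Ythdf3* (28.95 ± 2.25), which overlapped, *Ythdf1* (13.0 ± 1.00) and *Igf2bp3* (13.0 ± 0.62), which overlapped too, *Igf2bp2* (7.67 ± 0.44), *Igf2bp1* (1.61 ± 0.18) and last *Ythdc2* (1.18 ± 0.15). *Ythdf2* led on both measures, but *Ythdc2* was the second in the inputs and the last in Ctrl. Without scaling between the experiments, *Ythdc2* had a mean of 564 CPM on its span in L2C inputs and 10.5 CPM on its exons in Ctrl, a 53.2-fold ratio that placed it at percentile 99.6 of 11966 protein-coding genes with at least 1 CPM in Ctrl. *Ythdc1* was at the other end, with 19.8 CPM on its span and 414 on its exons (percentile 1.77). *Ythdf1* (percentile 10.9), *Ythdf2* (18.8), *Ythdf3* (42.8), *Igf2bp2* (54.5), *Igf2bp3* (78.4) and *Igf2bp1* (88.7) lay between. The experiments differ in embryos, injection, aligner and counting at once, so these cannot be told apart here. The stage levels and IP differences of all 8 readers are values of reads assigned to the span, and were not checked on exons alone.

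**Figure D5:**
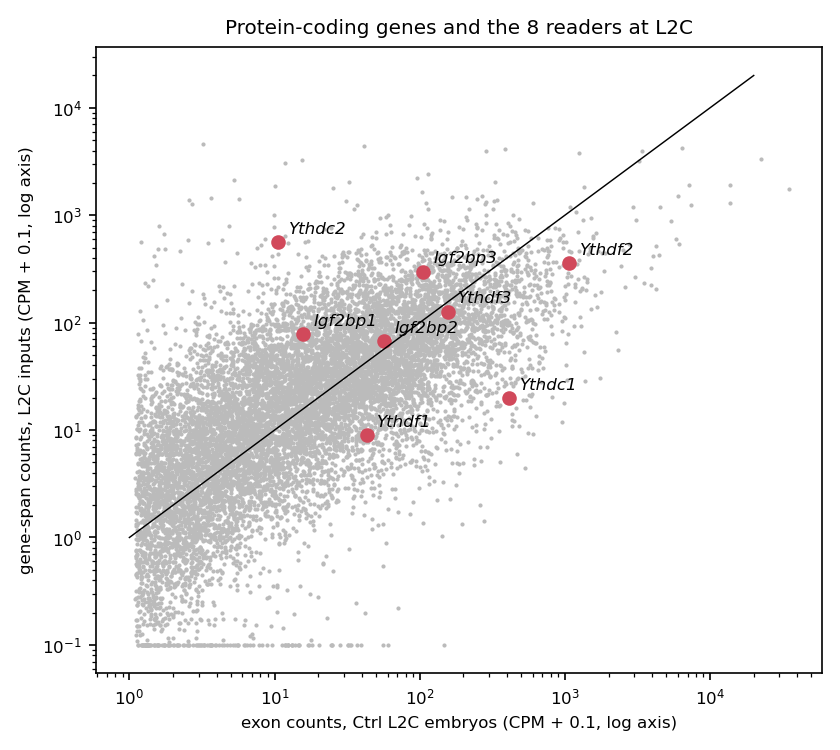
Counts on gene spans in L2C inputs (mean CPM plus 0.1, y axis) against counts on exons in Ctrl L2C embryos (mean CPM plus 0.1, x axis), both on log axes, for 11966 protein-coding genes (grey) and the 8 readers (red); the line marks equal values. *Ythdc2* lies far above the line at 564 against 10.5 CPM and *Ythdc1* far below it at 19.8 against 414.

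Other genes of the m6A pathway were taken from 4 lists. Of 13 writers and erasers, 12 were tested in the inputs: 5 rose and 6 fell from MII to L2C, with a median log2 change of -0.32 against 0.40 for all genes. Over all genes 47.5% were called higher and 37.1% lower in this comparison, and the counts of the lists stand against these shares. *Virma*, a scaffold of the methyltransferase complex, fell by 2.65 ± 0.14 on the log2 scale (adjusted p = 2.2e-10), and *Rbm15*, which guides the complex to RNA, rose by 1.73 ± 0.13 (adjusted p = 1.3e-08). *Mettl3*, the catalytic subunit, fell by 2.48 ± 0.15 from L1C to L2C (adjusted p = 8.9e-10), and *Zc3h13*, a further subunit of the complex, by 1.19 ± 0.12 from MII to L1C (adjusted p = 1.4e-06). Of 11 other m6A-binding proteins 7 rose and 2 fell from MII to L2C (median 0.50), with *Fxr2*, of the fragile X family of RNA-binding proteins, at 6.71 ± 0.22 (adjusted p = 2.8e-12) and *Snd1*, a Tudor domain nuclease, at -0.80 ± 0.12 (adjusted p = 3e-05). The rise of *Fxr2* began at L1C (2.51 ± 0.22, adjusted p = 3.7e-07), when *Eif3a*, the largest subunit of initiation factor eIF3, fell (-1.35 ± 0.15, adjusted p = 5.2e-06). From L1C to L2C *Rbmx*, a nuclear hnRNP, rose by 5.64 ± 0.24 (adjusted p = 3.8e-11) and *Fxr1* fell by 0.55 ± 0.17 (adjusted p = 0.0083).

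Of 20 partners and effectors, which include the CCR4-NOT deadenylase that Ythdf2 recruits and the meiotic partners of Ythdc2, 7 rose and 10 fell from MII to L2C (median -0.43), against 47.5% and 37.1% of all genes. *Btg4*, the adaptor that brings CCR4-NOT to maternal mRNA, fell by 2.68 ± 0.11 on the log2 scale (adjusted p = 2.2e-11), of which 2.28 ± 0.11 was between L1C and L2C (adjusted p = 1.3e-10). *Nxf1*, the mRNA export receptor, rose by 4.67 ± 0.19 (adjusted p = 1.5e-11), with 2.51 ± 0.17 by L1C (adjusted p = 4e-08). *Pabpc1*, the cytoplasmic poly(A)-binding protein, rose by 4.80 ± 0.31 from L1C to L2C (adjusted p = 2.1e-09), and *Cnot8*, a deadenylase subunit, fell by 1.04 ± 0.14 from MII to L1C (adjusted p = 2.1e-05). Of 10 RNAs that Igf2bp proteins are known to bind, 7 were tested in the inputs, of which 5 fell between MII and L2C and 1 rose (median -1.16). The one that rose was *Myc* (2.85 ± 0.31, adjusted p = 6.4e-07), which also rose from L1C to L2C (1.78 ± 0.28, adjusted p = 4e-05). *Lin28a*, an RNA-binding protein that blocks let-7 maturation, fell at each step, by 0.59 ± 0.11 to L1C (adjusted p = 0.00039) and 1.04 ± 0.11 to L2C (adjusted p = 5.7e-07), and by 1.64 ± 0.11 in all (adjusted p = 3.8e-09).

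In KD, over the 5 libraries with the whole annotation, 7 of 13 writers and erasers rose and 5 fell (median log2 change 0.29 against -0.09 for all genes). Of all genes in this fit, 30.5% were called higher and 36.4% lower. *Mettl16*, the methyltransferase of U6 and Mat2a RNA, rose by 0.91 ± 0.10 (adjusted p = 1.3e-06), and *Fto*, an eraser, had 0 counts in both KD libraries and 23, 18 and 10 in the Ctrl libraries, which is at least 9.33-fold lower with the group floor set at 3 counts (adjusted p = 0.00012). Of the other m6A-binding proteins 6 rose and 1 fell of 11, with *Eif3a* at 1.07 ± 0.08 (adjusted p = 3.7e-08) and *Snd1* at -0.28 ± 0.09 (adjusted p = 0.016). Of the partners and effectors 8 rose and 5 fell of 20, with *Srsf3*, a splicing factor that Ythdc1 binds, at 1.28 ± 0.11 (adjusted p = 7.2e-08) and *Btg4* at -0.97 ± 0.07 (adjusted p = 2.3e-08). Of the RNAs bound by Igf2bp proteins 6 were tested, of which 1 rose, *Myc* with 2.05 ± 0.29 (adjusted p = 1.3e-05), and 3 fell, *Lin28a* with -1.33 ± 0.12 (adjusted p = 1e-07) among them. In the IPs at MII, L1C and L2C the other m6A-binding proteins had 5, 6 and 5 members higher and 4, 3 and 2 lower of 11, the writers and erasers 4, 3 and 1 higher and 7, 6 and 2 lower of 13, and the partners and effectors 5, 6 and 9 higher and 4, 3 and 5 lower of 20. Of 8 tested RNAs bound by Igf2bp proteins 4, 4 and 4 were higher and 2, 3 and 2 lower. The shares of all genes at MII, L1C and L2C were 17.7%, 15.8% and 22.0% higher and 21.0%, 18.2% and 22.0% lower, or 26.2%, 29.03% and 33.3% higher and 16.2%, 11.9% and 16.0% lower with scaling to library size.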

How the data were processed

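SLIM-seq of 18 libraries and RNA-seq of 6 KD and Ctrl libraries were used. The authors quantified SLIM-seq with kallisto on 1 target per gene, named and sized as the whole gene span, and deposited estimated counts and TPM. Of 7306 protein-coding genes in an L2C input, 90.6% had a count to TPM ratio within 5% of proportion to the gene span, and 4.45% to exon length. For KD, Trimmomatic and HISAT2 were used for trimming and alignment, and the counts the authors deposited are read numbers on exons from featureCounts 2.0.1, paired-end and without strand (GRCm38). The labels name a stranded kit, while the methods describe oligo-dT priming after Smart-seq2, so reads of antisense genes may be included. The version of kallisto and the number of oocytes or embryos per SLIM-seq or KD library are not given in the sources used here. The TPM deposited by the authors sum over spans and keep no depth.

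Estimated counts were rounded and fitted with edgeR 4.0.16 (R 4.3.3; TMM, filterByExpr, quasi-likelihood test), with 1 coefficient per group. An adjusted p under 0.05 was a call. The KD merged table holds 37.5% to 39.0% of the counts of the 5 complete libraries. Intervals and floors cover counting or replicate error only. The fits were tested on simulated data, in which no recovered gene had the wrong sign. There the test of a change in IP enrichment between stages missed most genes given the smaller effect, with both tools, so its power is limited. A larger effect with less spread was added after this was seen. Alternatives were DESeq2 1.42.0, scaling to library size, no low-count filter, the replicate number as a block, only the stages compared, each library left out, call rules simplified from those of the study, TPM, exon length and the whole annotation. Readers and lists were chosen with earlier results of these data known. Named list genes were those with the smallest p in each direction at each stage step and in KD. A gene that this rule named is not reported here. crRNA sequences came from the supplementary tables of the study. The fold changes and p values of the authors were not used.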

Additional observations from a re-analysis of the deposited data

Results flagged for a closer look

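The difference between IP and input itself differed between stages for 3 readers, by the interaction term of edgeR's fit (Benjamini-Hochberg adjustment over 21950 genes). For *Ythdf3* it changed by 0.71 on the log2 scale from L1C to L2C and by 1.16 from MII to L2C, toward the level of the input. The call from L1C to L2C was lost in 8 of 23 alternatives, the replicate block and the fit of only these stages among them, and 9.47% of all genes were called there, against 20.3% from MII to L2C. *Igf2bp1* changed by 1.29 from MII to L1C and by 0.89 from MII to L2C, from a start of 0.86 to 1.09 CPM in the MII IPs, and the latter was not called without the filter on low counts (0.85). From MII to L1C 7.33% of all genes were called. *Ythdc2* changed by -1.11 from MII to L1C and by -1.24 from MII to L2C, while its level in the inputs, counted on its whole span, rose 8.29-fold to L1C. Depth and the scale of IP against input differ between these libraries, and their part in the changes was not tested.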

How the results depend on the processing

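Of 1570 recomputed values of single readers, 386 under other settings and 1100 with a library left out kept their direction and their side of the threshold, or moved by less than the spread between replicates. A further 42 moved by more than that spread, all of them in TPM. These were most of the stage changes recomputed in TPM. Only *Igf2bp1*, *Igf2bp2* and *Igf2bp3* from MII to L1C stayed within the spread there, the last and *Igf2bp2* only with 1 TPM added. The counts of called readers from MII to L1C, L1C to L2C and MII to L2C in the inputs, of called genes of the other lists and of stage levels that do not overlap stayed within 1.5 times under every alternative run. A rule simplified from that of the study for IP (higher IP, unadjusted p under 0.05 and over 1 count in each input, without its rule on single replicates) gave 2 readers at each stage. Its KD thresholds in the edgeR fit (unadjusted p under 0.05 and a log2 change over 1 in size) gave 1 reader, and 0 with DESeq2. The changes of IP enrichment from L1C to L2C gave 2 called readers with DESeq2, 0 with the replicate block, and 0 to 2 with each library left out. The called rise of *Ythdc1* from MII to L2C (0.67) reversed to -0.042 and -0.055 in TPM with 1 and 0.1 added. The other reversed values were not called. *Ythdf1* in KD was -0.00 with scaling to library size. The IP change of *Igf2bp2* from MII to L1C was -0.006 with only these stages fitted, and that of *Ythdf2* from L1C to L2C, -0.00 in the joint fit, was 0.004 with the replicate block and -0.107 to 0.083 with each library left out. Leaving out libraries gave -0.17 to 0.006 for *Ythdf3* from MII to L1C, -0.051 to 0.214 for the IP change of *Ythdc1* from MII to L1C, and -0.14 to 0.008 for *Igf2bp2* in KD. The replicate block changed no other count by over 1.5 times. Same-numbered libraries had correlations of -0.154 to 0.16, and for no comparison was every pair over 0.1, so the numbers were not taken as pairs. According to the paper's results, input and IP RNA came from the same batches, and nothing ties a number to a batch. The cause of these differences was not tested. Low counts limit *Igf2bp1* and *Ythdf1* at MII, and the KD comparison of *Ythdc2*.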
